A study of Mus musculus with 6 samples.

Results

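*Gen1* and 8 other genes of homologous recombination (*Brca1*, *Brca2*, *Mus81*, *Eme1*, *Slx4*, *Xrcc2*, *Xrcc3* and *Blm*) were followed in muscle stem cells, called satellite cells (SCs), with and without the transcription factor Slug. The genes were taken by name. A probe set annotated to exactly 1 gene symbol was required, which 8 of the 9 genes have, each with 1 such probe set, among 22180 genes on the array. *Xrcc2* was not analysed here. *Gen1* was picked because its difference between the genotypes was among the largest on these same arrays, and the others because they act with it, so the differences of all members are given as a description and with no test. SCs were sorted by surface markers from uninjured hindlimb muscle of adult male C57BL6 mice and lysed without culture. There were 3 *Slug*-/- samples and 3 *Slug*+/+ samples, with 1 Affymetrix whole-transcript array for each. The *Slug*-/- mice lack Slug in all tissues, not in SCs alone. The replicates are labelled as biological, with no word on whether a mouse gave more than 1 of them, so the spread given here is that between these samples.

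Homologous recombination repairs broken chromosomes by copying an intact sister chromatid, and it therefore works mainly in the S and G2 phases of dividing cells. BRCA1 opens the pathway at a resected end, BRCA2 prepares the single strand for pairing with its copy, and XRCC2 and XRCC3 assist at that step. The strands that pair in this way become joined at Holliday junctions. BLM helicase, with its partners, takes such junctions apart without a cut, while GEN1, and the nucleases MUS81-EME1 on the SLX4 scaffold, resolve them by cutting. SCs of resting muscle are out of the cell cycle, so most of them hold no sister chromatid to copy.

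Values are on the log2 scale of the deposited table. Background was read from 1088 olfactory receptor genes, which are not expected in muscle: their 95th percentile was 3.04, called the background guide here, and 53.7% of all genes had a mean above it. Array medians lay between 2.87 and 2.96, and Pearson's r across genes was 0.947 to 0.961 within a genotype and 0.946 to 0.966 between genotypes. *Snai2*, the gene that encodes Slug, was at 4.59 to 5.15 on the *Slug*-/- arrays, against 6.25 to 6.66 on the *Slug*+/+ arrays, but the position of its probes relative to the deletion is not known here. The SC marker *Pax7* was between 8.70 and 9.57 on all 6 arrays. Limma (moderated statistics, Benjamini-Hochberg adjustment over 22180 genes) called 0 genes at an adjusted p under 0.05, with a smallest adjusted p of 0.435 and 1286 genes at an unadjusted p under 0.05.

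*Gen1*, the nuclease that cuts Holliday junctions symmetrically, was higher on every *Slug*-/- array than on any *Slug*+/+ array. Its log2 value was 3.99, 4.31 and 4.88 in *Slug*-/- SCs, against 2.11, 2.82 and 2.51 in *Slug*+/+ SCs. All *Slug*-/- arrays were above the background guide and all *Slug*+/+ arrays were below it, and the lowest *Slug*-/- array stood 1.16 above the highest *Slug*+/+ array. The mean was 4.39 ± 0.45 in *Slug*-/- SCs and 2.48 ± 0.36 in *Slug*+/+ SCs (SD, n = 3 each), a log2 difference of 1.91 with a standard error of 0.29. Because the *Slug*+/+ signal was not above background, the fold on these arrays is given as a lower bound. With values under the guide raised to it, *Gen1* was at least 2.56-fold higher on these arrays. This bound leaves out the spread between arrays and the choice of *Gen1* by its difference on these same arrays, so the true fold can be lower. In RNA of sorted cells, more cells with the transcript and more transcript in each cell cannot be told apart.

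**Figure D1:**
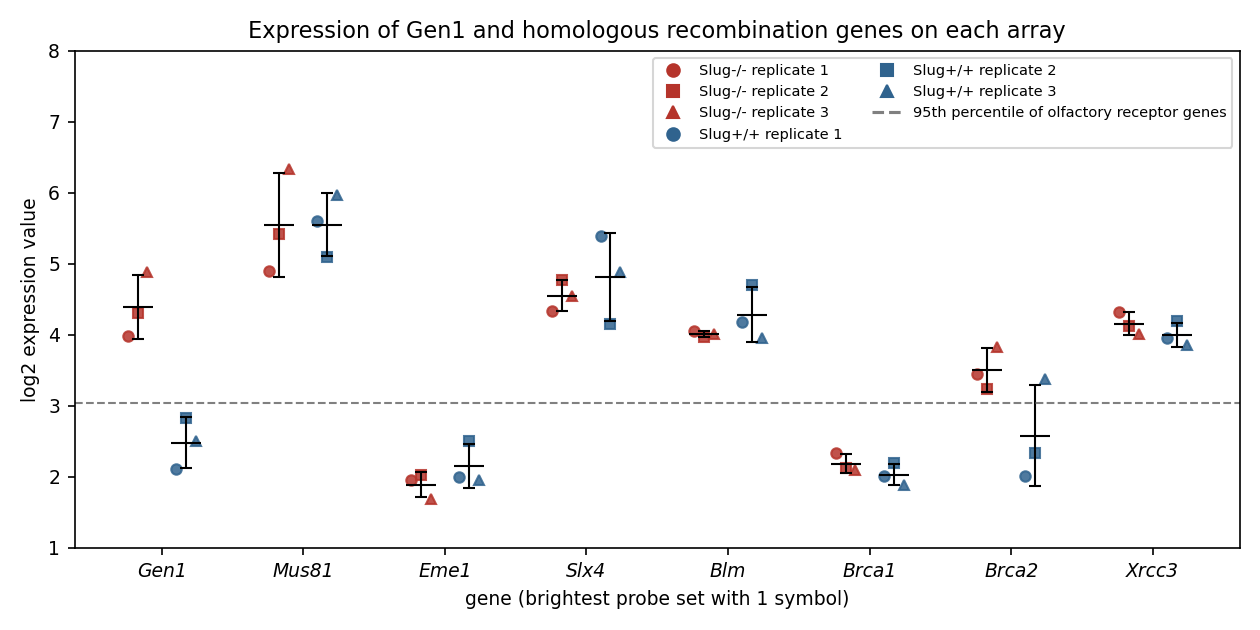
Log2 expression value (y axis) of the 8 measured genes (x axis) on each array, *Slug*-/- to the left and *Slug*+/+ to the right of each gene. Bars are the mean and SD of 3 arrays and the dashed line is the background guide of 3.04. For *Gen1* the *Slug*-/- arrays, from 3.99 to 4.88, all lie above the line and the *Slug*+/+ arrays, from 2.11 to 2.82, all lie below it, while the genotypes overlap for the other 7 genes.

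In the RefSeq promoter table (build GRCm38.p6), *Gen1* starts back to back with *Smc6*, which encodes a subunit of the SMC5/6 complex, itself a partner of homologous recombination. Only 78 bases lie between the start given for *Gen1* and that of *Smc6*, at chr12:11265808-11265885, and they are shown because they are all that parts the starts of a gene whose arrays parted by genotype and one whose arrays overlapped. The annotated *Gen1* gene reaches past this stretch, so the genes themselves overlap. Read 5′ to 3′ on the minus strand, toward *Gen1*, the stretch is:
Gen1 to Smc6: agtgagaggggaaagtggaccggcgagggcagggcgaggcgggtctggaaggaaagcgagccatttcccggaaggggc
No letters are in capitals, since none of the motifs searched below occurs in it. *Smc6* was at 7.43, 7.72 and 7.83 in *Slug*-/- SCs, against 7.50, 7.66 and 7.32 in *Slug*+/+ SCs, and the genotypes overlapped. Its log2 difference was 0.17 with a standard error of 0.19 (limma, adjusted p = 0.947).

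The other nucleases of junction resolution did not share the pattern of *Gen1*. *Mus81*, the catalytic subunit of a structure-selective nuclease, was at 4.90, 5.41 and 6.34 in *Slug*-/- SCs, against 5.60, 5.09 and 5.97 in *Slug*+/+ SCs. Its arrays overlapped over most of their range, and the log2 difference was -0.0019 with a standard error of 0.39. That error leaves room for changes of either sign, with a 95% interval from limma of -0.91 to 0.90, and the difference ran from -0.40 to 0.32 without single arrays. *Eme1*, the non-catalytic partner of MUS81, was at 1.95, 2.03 and 1.69 in *Slug*-/- SCs, against 2.0, 2.50 and 1.96 in *Slug*+/+ SCs. All 6 arrays were below the background guide, so its difference of -0.26 (standard error 0.21) compares signals that were not above background. *Slx4*, the scaffold that holds several nucleases at junctions, was at 4.33, 4.77 and 4.54 in *Slug*-/- SCs, against 5.40, 4.16 and 4.88 in *Slug*+/+ SCs. The *Slug*+/+ arrays lay on both sides of the *Slug*-/- arrays, with a difference of -0.26 (standard error 0.32). Leaving out *Slug*+/+ replicate 1 turned the sign (0.03), and leaving out *Slug*+/+ replicate 2 gave -0.59.

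*Blm*, the helicase of the route that dissolves junctions without cutting, was at 4.05, 3.96 and 4.01 in *Slug*-/- SCs, against 4.17, 4.71 and 3.96 in *Slug*+/+ SCs. The *Slug*-/- arrays lay close together (SD 0.046, against 0.39 in *Slug*+/+ SCs, n = 3 each), and 1 *Slug*+/+ array, replicate 2, stood above the rest. The difference was -0.27 with a standard error of 0.22, and it was -0.06 without that array and -0.43 without *Slug*+/+ replicate 3.

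Of the genes that act before junctions form, *Brca2*, which acts at the step of strand pairing, came closest to *Gen1*. It was at 3.45, 3.23 and 3.84 in *Slug*-/- SCs, against 2.02, 2.34 and 3.38 in *Slug*+/+ SCs. All *Slug*-/- arrays and 1 *Slug*+/+ array, replicate 3, were above the background guide, and that array lay within the range of the *Slug*-/- arrays. The mean was 3.50 ± 0.31 in *Slug*-/- SCs and 2.58 ± 0.71 in *Slug*+/+ SCs (SD, n = 3 each), a log2 difference of 0.93 with a standard error of 0.36. With values under the guide raised to it the measured difference was 0.35, or 1.28-fold. Without single arrays the difference of 0.93, with no values raised, ran from 0.65, without *Slug*+/+ replicate 1, to 1.33, without *Slug*+/+ replicate 3.

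*Brca1*, which promotes resection and recruits BRCA2 through PALB2, was at 2.34, 2.12 and 2.10 in *Slug*-/- SCs, against 2.02, 2.19 and 1.89 in *Slug*+/+ SCs. All 6 values were below the background guide, so *Brca1* was not above background in either genotype and its difference of 0.16 (standard error 0.17) has no bound. *Xrcc3*, which assists strand pairing, was at 4.33, 4.12 and 4.01 in *Slug*-/- SCs, against 3.95, 4.19 and 3.85 in *Slug*+/+ SCs. It was above background on all arrays, the genotypes overlapped, and the difference was 0.15 (standard error 0.18, 95% interval from limma -0.27 to 0.58).

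Counted over the list, 4 of the 8 measured members had a positive difference, where 48.4% of all genes did, and their median log2 difference was 0.08, against -0.01 over all genes. For the 7 members other than *Gen1* the count was 3 and the median -0.0019. Only *Gen1* was higher with no overlap between the genotypes, as were 5.24% of all genes. Since this contrast was used to choose the genes, these counts are no evidence about them. Above the background guide by their means were 6 members in *Slug*-/- SCs and 4 in *Slug*+/+ SCs. Of all 22180 genes, 11822 and 12040 were. *Gen1* and *Brca2* were the members above it in *Slug*-/- SCs alone, and this count too is no evidence about the members.

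**Figure D2:**
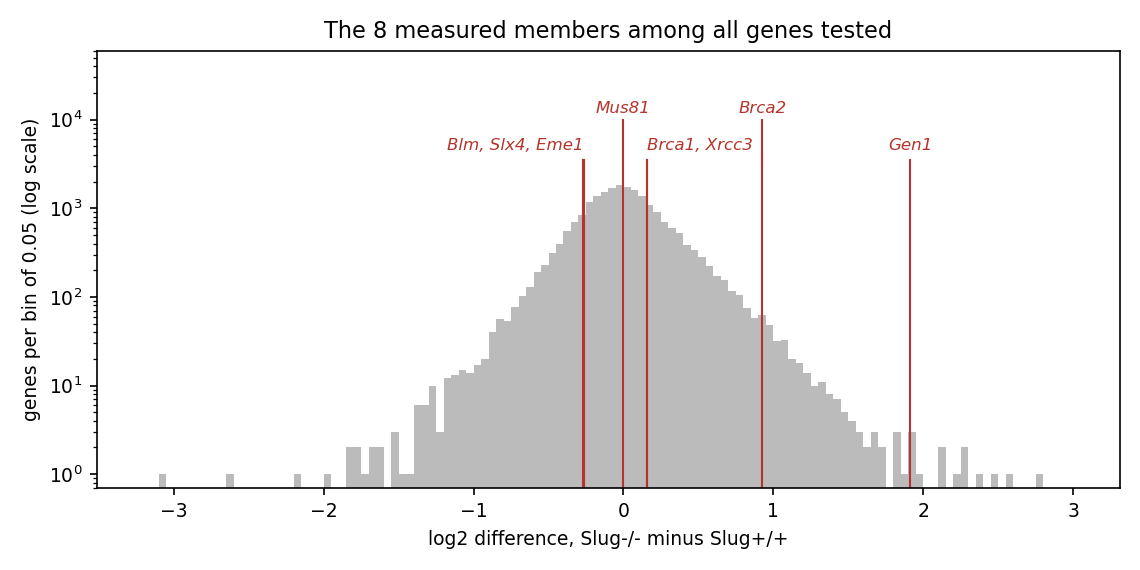
Log2 difference, *Slug*-/- minus *Slug*+/+, of all 22180 genes (grey, x axis; number of genes per bin on a log y axis), with red lines at the 8 measured members. *Gen1* at 1.91 lies in the sparse right tail and *Brca2* at 0.93 on the right shoulder, while the other 6 lie between -0.27 and 0.16, in the bulk of the genes.

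By the root mean square distance of the 6 values after the mean of each gene was subtracted, the genes with a profile most like that of *Gen1* were *Ptgds*, a prostaglandin D synthase (0.17), *Pde3b*, a cyclic nucleotide phosphodiesterase (0.20), *Tac4*, a tachykinin precursor (0.26), *Dusp6*, a phosphatase of ERK (0.28), and *Angptl4*, an angiopoietin-like secreted protein (0.30). Predicted genes, small RNAs and receptor families were left out. These 5 genes, none of them a DNA repair gene, had log2 differences of 1.57 to 1.84 and did not overlap between the genotypes. Both traits follow from their choice by likeness to *Gen1* and are no separate result. Of the members, *Brca2* was nearest to *Gen1* at a distance of 0.66, with 181 genes of the array nearer, and *Slx4* was the farthest at 1.25, with 20139 genes nearer.

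The wider recombination pathway was read from 42 further genes, of which 36 were measured. Its median log2 difference was 0.03, and 19 of 36 genes were positive. By their means, 25 of the 36 were above the background guide in *Slug*-/- SCs and 26 in *Slug*+/+ SCs, so the others compare background signals. Of all 22180 genes, 11822 and 12040 were above it. At an unadjusted p under 0.05, 2 genes were higher and 1 was lower, where 3.31% and 2.49% of all genes were. Among 11 measured genes of end processing and BRCA1 complexes the higher one was *Mre11a*, the nuclease that starts resection, at 4.19, 3.94 and 3.98 in *Slug*-/- SCs, against 3.41, 3.48 and 3.74 in *Slug*+/+ SCs. Its *Slug*-/- arrays were all above its *Slug*+/+ arrays, and they differed by 0.49 (standard error 0.18, limma adjusted p = 0.825). Among 16 measured genes of strand exchange the other was *Rpa1*, the large subunit of the RPA complex that coats single strands, at 4.09, 4.36 and 4.66 in *Slug*-/- SCs, against 4.03, 3.0 and 3.70 in *Slug*+/+ SCs. Its arrays did not overlap either, and they differed by 0.80 (standard error 0.29, limma adjusted p = 0.825). These are values of the brighter of 2 probe sets, and with the mean of both *Rpa1* no longer passed the unadjusted threshold.
The lower gene was another subunit of the same complex. *Rpa2* was at 2.77, 3.02 and 3.68 in *Slug*-/- SCs, against 3.54, 4.65 and 3.79 in *Slug*+/+ SCs, with overlap, and its difference was -0.83 (standard error 0.35, limma adjusted p = 0.858). *Rpa3*, the small subunit, had a difference of 0.02 (standard error 0.44), also on the brighter of 2 probe sets. The subunits of 1 complex thus had values of both signs on the probe sets used. *Rpa2* was below the background guide on *Slug*-/- replicates 1 and 2, and *Rpa1* on *Slug*+/+ replicate 2. With values under the guide raised to it, *Rpa2* no longer passed the unadjusted threshold. Each of these 3 calls was lost when some single array was left out. *Mre11a* no longer passed the unadjusted threshold without replicate 1 of either genotype or *Slug*+/+ replicate 2, and *Rpa1* without *Slug*-/- replicate 2 or 3 or *Slug*+/+ replicate 2. *Rpa2* no longer passed without *Slug*-/- replicate 1 or 2 or *Slug*+/+ replicate 2 or 3. The count of higher genes was 1 to 3 and that of lower genes 0 to 1 without single arrays.
None of the 6 measured dissolution genes passed the unadjusted threshold. The smallest p there was that of *Top3a*, the topoisomerase partner of BLM, with a difference of -0.40 (standard error 0.27), followed by *Rmi1*, another partner, with 0.15 (standard error 0.18). *Rmi1* was below the background guide on all arrays. Of the 3 other measured genes of resolution none passed. *Slx4ip*, below the guide on all arrays, was at -0.18, *Ercc4*, a nuclease bound by SLX4, at -0.14 and its partner *Ercc1* at 0.13.

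**Figure D3:**
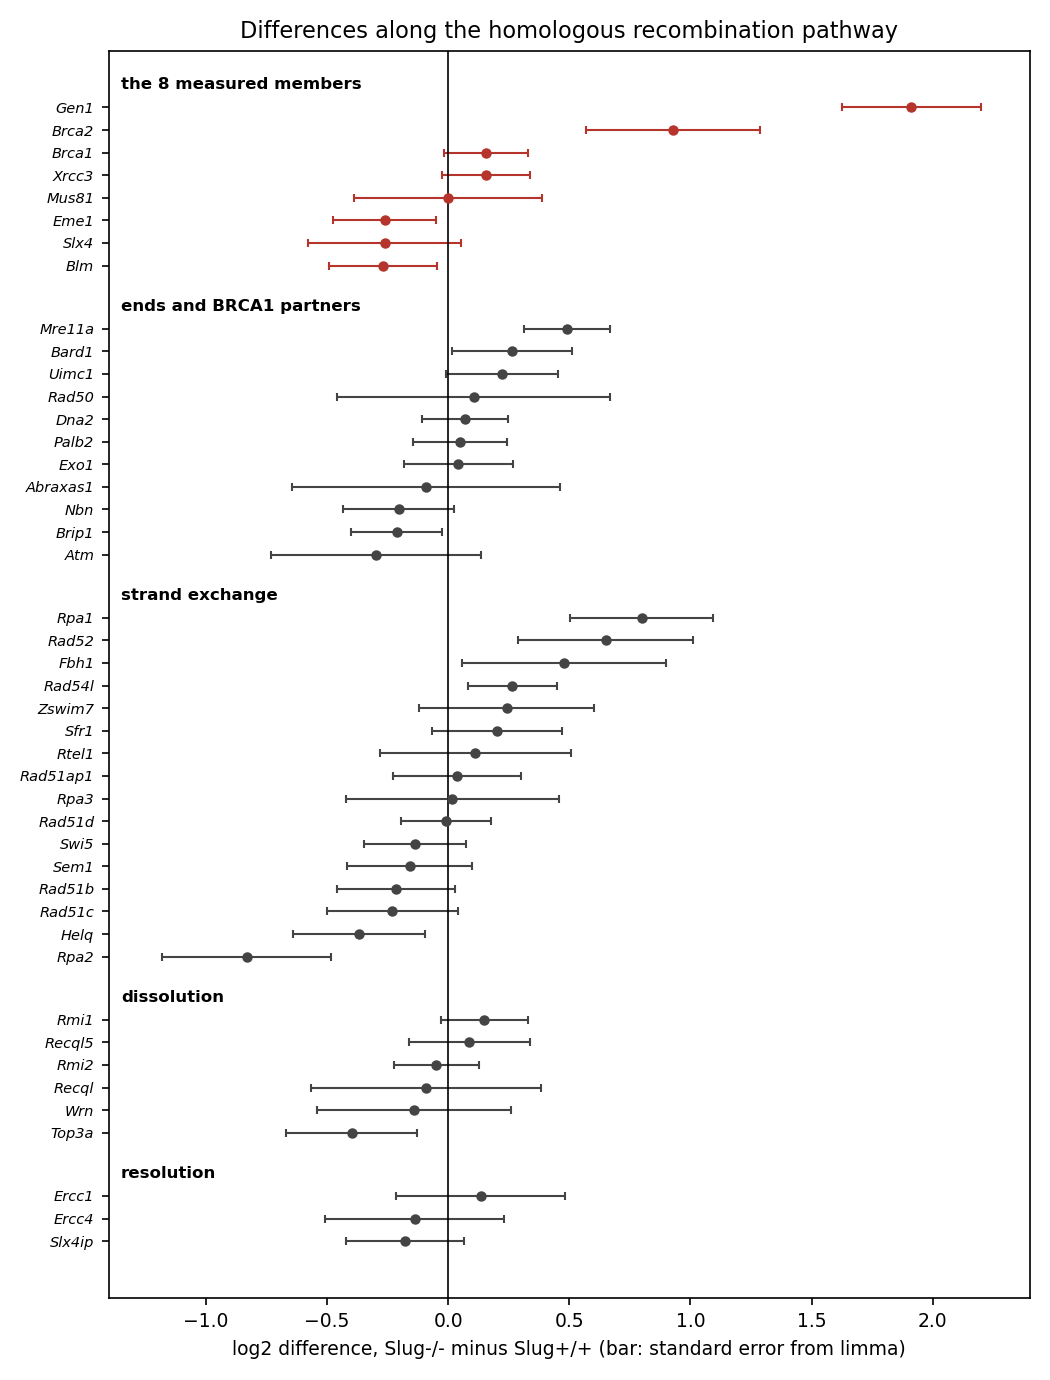
Log2 difference, *Slug*-/- minus *Slug*+/+ (x axis, bars are the standard error from limma), of the 8 measured members (red) and 36 other recombination genes (dark grey), grouped by step. *Gen1* at 1.91 stands to the right of all other genes shown, of which *Brca2* is the nearest at 0.93, and the 36 other genes run from -0.83 for *Rpa2* to 0.80 for *Rpa1*.

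GEN1 belongs to the RAD2 family of nucleases with FEN1, EXO1 and ERCC5. *Fen1*, the flap nuclease of replication, was at 2.81 to 2.94 in *Slug*-/- SCs, against 2.97 to 3.15 in *Slug*+/+ SCs, and these values lie around the background guide. Its difference was -0.16, on the brighter of 2 probe sets. *Exo1*, a resection nuclease, had a difference of 0.04 (standard error 0.22) but was below the guide on all arrays. *Ercc5*, a nuclease of excision repair, had a difference of -0.22 (standard error 0.35). No relative had a difference near that of *Gen1*, but of the relatives only *Ercc5* was above the guide on all arrays.

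Neighbouring repair pathways were read in the same way. Of 13 measured Fanconi anaemia genes, whose products unlink crosslinked strands and hand them to recombination, 1 was higher and 2 were lower at an unadjusted p under 0.05, where 3.31% and 2.49% of all genes were. *Fancf*, a subunit of the core complex, was at 5.05 to 6.05 in *Slug*-/- SCs, against 4.46 to 4.78 in *Slug*+/+ SCs (difference 0.84, limma adjusted p = 0.823). *Fancc*, of the same complex, was at 2.65 to 3.17 in *Slug*-/- SCs, against 3.38 to 3.90 in *Slug*+/+ SCs (difference -0.76, limma adjusted p = 0.792). *Faap24*, a DNA-binding partner of FANCM, was at 2.90 to 3.29 in *Slug*-/- SCs, against 3.41 to 4.01 in *Slug*+/+ SCs (difference -0.72, limma adjusted p = 0.823). The *Slug*-/- means of *Fancc* and *Faap24* (2.90 and 3.03) were not above the background guide, so their differences rest in part on signals near background. Of 16 measured genes of end joining, the route open to cells with no sister chromatid, none passed the unadjusted threshold in either direction, with *Polm*, a gap-filling polymerase, at -0.34 and *Aplf*, an end-joining scaffold, at 0.29 having the smallest p. Of 11 measured meiotic recombination genes none passed, with *Dmc1*, the meiotic recombinase, at -0.49 and *Spo11*, which makes meiotic breaks, at -0.38 having the smallest p. Both were below the background guide on all arrays.

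Genes of cycling cells were read beside *Gen1*. The mean log2 value of 24 measured G2 and mitosis genes was 3.29 to 3.69 on the *Slug*-/- arrays, against 2.72 to 2.87 on the *Slug*+/+ arrays, with no overlap of the means. A positive difference was found for 22 of them, where 48.4% of all genes had one, the median being 0.66. For 11 of the 24 the arrays did not overlap, where 5.24% of all genes were higher in that way. At an unadjusted p under 0.05, 12 were higher and 0 lower, where 3.31% and 2.49% of all genes were (*Mki67*, *Cdk1*, *Aurka*, *Ccna2*, *Top2a*, *Nusap1*, *Ube2c*, *Kif23*, *Cdc20*, *Tpx2*, *Kif11* and *Birc5*), while limma called 0 at an adjusted p under 0.05 (smallest adjusted p = 0.493). *Mki67* had a difference of 2.47 and *Cdk1* of 2.39, both larger than the 1.91 of *Gen1*. *Ccna2*, the cyclin of S phase and G2, had a difference of 0.67, *Aurka*, a spindle kinase, of 0.71, and *Top2a*, the topoisomerase of dividing cells, of 1.56. Like *Gen1*, *Cdk1*, *Top2a* and *Kif23* were above the background guide on all *Slug*-/- arrays and below it on all *Slug*+/+ arrays. The 21 measured S phase genes averaged 4.02 to 4.17 on the *Slug*-/- arrays, against 3.81 to 4.09 on the *Slug*+/+ arrays, and overlapped. Of these, 2 were higher and 0 lower at an unadjusted p under 0.05, *Tyms*, which makes thymidylate (difference 1.09), and *Cdt1*, which licenses origins (0.69). The part of cycling cells in the difference of *Gen1* was not tested.

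**Figure D4:**
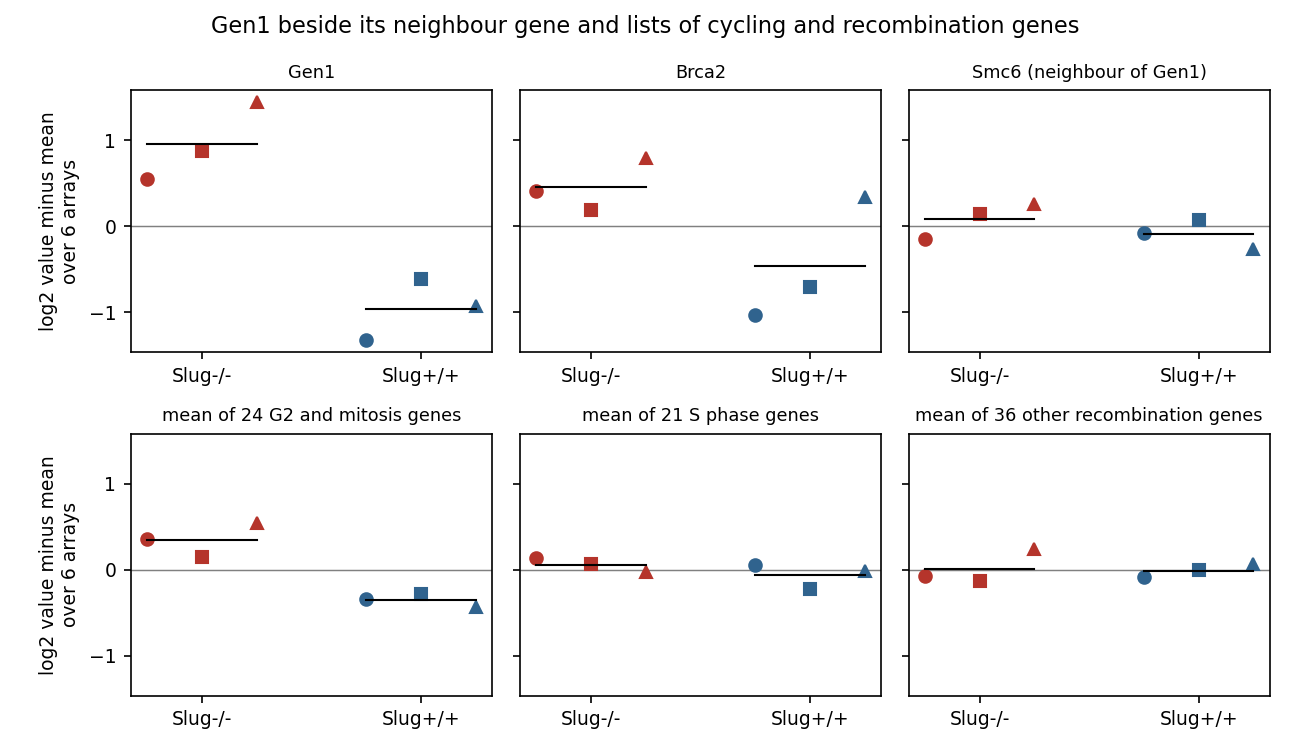
Log2 value minus the mean over 6 arrays (y axis) for *Gen1*, *Brca2*, *Smc6* and the means of 3 gene lists, in *Slug*-/- SCs (red, left) and *Slug*+/+ SCs (blue, right). Circles, squares and triangles are replicates 1, 2 and 3 and black lines are genotype means. *Gen1* and the G2 and mitosis mean part the genotypes, whereas *Brca2*, *Smc6*, the S phase mean and the mean of the 36 other recombination genes overlap.

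Markers of other muscle cells were read beside these values. The 6 fibro-adipogenic markers averaged 6.72 to 7.04 on the *Slug*-/- arrays, against 6.53 to 6.71 on the *Slug*+/+ arrays. Of them 1, *Lum*, was higher at an unadjusted p under 0.05 (difference 1.05), and the arrays of all 6 overlapped between the genotypes. Of these *Pdgfra* lay between 2.64 and 3.08, around the background guide, and *Col1a1*, *Col3a1*, *Dcn* and *Dpt* lay between 5.54 and 11.06, above it on all arrays. The 7 measured blood markers averaged 2.65 to 2.73 on the *Slug*-/- arrays, against 2.87 to 3.07 on the *Slug*+/+ arrays, and *Ptprc* and *Itgam* were below the guide on all arrays. In that list *Cd68* was above the guide on all arrays, at 5.34 to 5.58 in *Slug*-/- SCs, against 6.09 to 6.86 in *Slug*+/+ SCs. It was lower at an unadjusted p under 0.05 (-0.96), with its arrays not overlapping. The 6 endothelial markers averaged 4.18 to 4.68 on the *Slug*-/- arrays, against 4.06 to 4.26 on the *Slug*+/+ arrays, with *Emcn* higher at an unadjusted p under 0.05 (0.74) but below the guide on all arrays. None of the 4 measured mural and glial markers passed the unadjusted threshold (smallest p for *Kcnj8*, at -0.24, and *Pdgfrb*, at -0.09), nor did any of 7 muscle fibre markers (*Acta1*, at 0.52, and *Tnnt3*, at -0.35) or of 10 SC markers (*Itga7*, at 0.35, and *Cxcr4*, at 0.35). The part of these cells in the members' differences was not tested.

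Promoters were searched in the 250 bases before each start in the RefSeq table, which matched 8 of the 9 members. The E2-box CAGGTG, which Slug can bind, was in none of the 8 member promoters on either strand, against 17.2% of all 32851 promoters in the table. An E2F site, written as TTTCCCGC, TTTCGCGC, TTTGCCGC or TTTGGCGC, was in 1 member promoter, that of *Brca2*, against 1.9% of all promoters. Each search covered both strands, and no motif contains another. The match in *Brca2* begins 168 bases before the start used here and is shown because it was the only one of its kind among the members. The annotated *Brca2* gene reaches past this stretch, so the match lies within the annotated gene. The stretch is at chr5:150522427-150522486 on the plus strand, with the matched bases in capitals:
Brca2: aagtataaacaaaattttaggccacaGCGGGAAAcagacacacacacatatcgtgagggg
The CHR element of mitotic genes, written as TTTGAA or TTCGAA, was in none of the 8, against 17.1% of all promoters. The CCAAT box was in 4 of the 8 (*Blm*, *Brca1*, *Slx4* and *Xrcc3*), against 33.8% of all promoters, and *Xrcc3* held 6 matches to it. The *Gen1* window had none of these motifs and was 70.0% G and C, against a median of 52.4% over all promoters. A match is a description of letters and shows no binding, and its absence says only that these letters are not in this window.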

How the data were processed

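RNA of 3 *Slug*-/- and 3 *Slug*+/+ SC samples was labelled by the authors for Affymetrix Mouse Gene 2.0 ST arrays and processed with Affymetrix's Gene Expression Console. The sources used here name neither the summarization algorithm nor the software version. Each deposited value is a log2 expression value made by the authors for 1 array, and 0 sample columns were left unused. Of 41345 probe sets, those with exactly 1 symbol in the platform's annotation table were used (23521), taking the brightest of each gene. *Slug*-/- was compared with *Slug*+/+ with limma 3.58.1 under R 4.3.3 (functions lmFit and eBayes, with 3.57 prior degrees of freedom), adjusted over 22180 genes, with thresholds of an unadjusted and an adjusted p of 0.05. Dim probe sets were kept. The number of arrays limits the precision. The fit was tested on simulated data.

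The members and lists were chosen with earlier results of these data known. Named genes are the members, *Snai2*, genes of each list at an unadjusted p under 0.05 or else those with the smallest p, and the 5 genes most like *Gen1*. *Smc6*, *Pax7*, *Lrrc59*, *Mrpl27*, *Nbr1*, further fibro-adipogenic and blood markers and values named for a complex or family were added after values were seen. Of the recombination genes, 6 of 42 without a probe set of 1 symbol were not analysed here. Alternatives tried were the mean of probe sets, quantile normalization, array medians subtracted, only genes above background, values under background raised, array weights, a trend and robust prior, a plain unpaired test, the replicate number as a block and leaving out each array. No batch is named in the sources used here. Replicates of 1 genotype differed with an SD of 0.724 to 0.769 over probe sets, so none was a copy.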

Additional observations from a re-analysis of the deposited data

How the results depend on the processing

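The log2 difference of *Gen1* was positive in all 13 alternatives, from 1.35 with values under background raised to 2.11, and lay between 1.67 and 2.11 when single arrays were left out. *Brca1*, *Brca2*, *Xrcc3*, *Eme1* and *Blm* kept their sign in every alternative that gave a value, while *Mus81* kept it in 7 of 13 and *Slx4* in 12 of 13. The median over the members stayed between 0.02 and 0.12 and the count of positive members between 3 and 6. With values raised, *Brca1* and *Eme1* were at the guide on all arrays and gave no value. The count of other recombination genes higher at an unadjusted p under 0.05, 2 in the comparison reported, was 1 with the mean of probe sets, with only genes above background, with the trend and robust prior and with the plain unpaired test, and 1 to 3 without single arrays. The count of lower genes, 1 as reported, was 0 with quantile normalization, array medians subtracted, values raised and the plain unpaired test, and 0 to 1 without single arrays. The cause was not tested. Limma called 0 genes at an adjusted p under 0.05, and 0 to 1 without single arrays, the 1 being *Mir505*, lower without *Slug*+/+ replicate 2, which is no member and is named after its values were seen. The replicate numbers were not taken to pair the samples, since deviations of same-numbered arrays from their genotype means correlated over 0.1 across genes for 1 number only, replicate 3 (0.135, against 0.029 and 0.019 for replicates 1 and 2). With the replicate number as a block, the difference of *Gen1* was 1.91 (standard error 0.23), the members' median 0.08 with 4 positive, the counts of higher and lower recombination genes were 2 and 1, and limma again called 0 genes at an adjusted p under 0.05.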

Other observations

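*Mlh3*, a mismatch repair homologue with a role in meiosis, was at 2.21, 1.70 and 4.18 in *Slug*-/- SCs, against 1.72, 1.90 and 3.42 in *Slug*+/+ SCs. It was above the background guide in replicate 3 of both genotypes and on no other array. It was singled out after its values were seen. *Mus81* and *Brca2* were also highest in replicate 3 of both genotypes, as were 8 of the 36 other recombination genes (*Brip1*, *Rad50*, *Rad51d*, *Rad54l*, *Recql5*, *Rmi1*, *Swi5* and *Wrn*), or 22.2%, against 10.9% of all genes and 16.3% of the genes above the background guide. These counts were added after seeing the data.

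*Lrrc59*, a membrane protein of the endoplasmic reticulum whose gene overlaps *Eme1*, was at 6.87, 6.52 and 6.39 in *Slug*-/- SCs, against 5.94, 6.26 and 5.40 in *Slug*+/+ SCs. Its difference of 0.73 (standard error 0.26, limma adjusted p = 0.823) is positive, whereas that of *Eme1*, below the background guide on all arrays, is -0.26. *Lrrc59* had the largest difference of the measured genes within 1000 bases of a member, and was singled out after its values were seen. *Mrpl27*, whose gene also overlaps *Eme1*, had a difference of 0.09 and was below the guide on all arrays. *Nbr1*, an autophagy receptor whose gene lies back to back with *Brca1*, had overlapping arrays and a difference of 0.29 (standard error 0.26).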
